A study of Mus musculus with 27 samples.

Results

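Proliferative lesions of the thyroid of radiation-exposed mice (PL) were compared with thyroid of mice that were not exposed (NCT). The comparison used 18 of the 27 libraries of the series, 9 of PL and 9 of NCT, chosen by the group name in the labels. It covered every expressed gene, 14234 of 54532 rows after a filter on low counts. Each library came from a different mouse in both groups, with 6 females and 3 males in each. PL mice had been exposed to radiation and NCT mice had not. Every exposed mouse here bore a lesion, so exposure, the presence of a lesion in the gland and lesion tissue itself cannot be told apart in this comparison. The sources used here give no dose, time since exposure, strain or age, so whether these matched between the groups is not known. Small areas were dissected from tissue sections with a laser under the microscope, and the libraries counted reads at the 3′ ends of transcripts. A further group of 9 libraries, normal thyroid from the mice with lesions (NT), entered no test, and its levels are printed beside some results as a description. The question was how expression in the lesions differs from thyroid that was never exposed.

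Follicular cells of the thyroid carry iodide to the follicle lumen, where it is bound to thyroglobulin with the help of dual oxidases. They later take thyroglobulin up again, and proteases of endosomes and lysosomes free the hormones from it. Thyrotropin from the pituitary drives these steps through a receptor that raises cyclic AMP. C cells, which lie between the follicles and make calcitonin, are a separate endocrine cell type. Parathyroid glands, fat, muscle, trachea and connective tissue lie against the thyroid and can enter a dissected area. Ionizing radiation is a known cause of thyroid tumours.

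The libraries held 2923851 to 10202813 counts in NCT and 4693945 to 12055026 in PL. Levels are given in CPM, a read count adjusted for the size of its library. Tg, the thyroglobulin gene, was at 9736 CPM or more in every library of both groups, and Pax8, Nkx2-1 and Foxe1 were detected in all 18, so the thyroid label was met. Transcripts of Pth, which encodes parathyroid hormone, exceeded 2000 CPM in PL replicate 2 (27677) and in NCT replicates 5 (4488) and 8 (2427). Lipf, a gastric lipase gene, was at 9970.1 CPM in NCT replicate 9 and at 7.64 to 18.3 CPM in PL. Ucp1, the uncoupling protein of brown fat, was above 200 CPM in NCT replicates 2, 5, 6 and 9 and in no PL library. An adipocyte score, the mean log2 CPM of white and brown fat markers, was 4.98 to 7.27 in NCT (median 5.21) and 2.13 to 5.53 in PL (median 3.84). The score thus moved with the group, and fat tissue and the other differences between the groups cannot be fully told apart. In bulk tissue such as this, fewer cells of a type and less RNA per cell cannot be told apart either.

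On the first principal component of log2 CPM, which held 23.5% of the variance, NCT libraries lay between -52.5 and -13.4 and PL libraries between 4.56 and 72.5. The groups did not overlap on this axis. The second component held 12.1% and did not divide them.

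**Figure D1:**
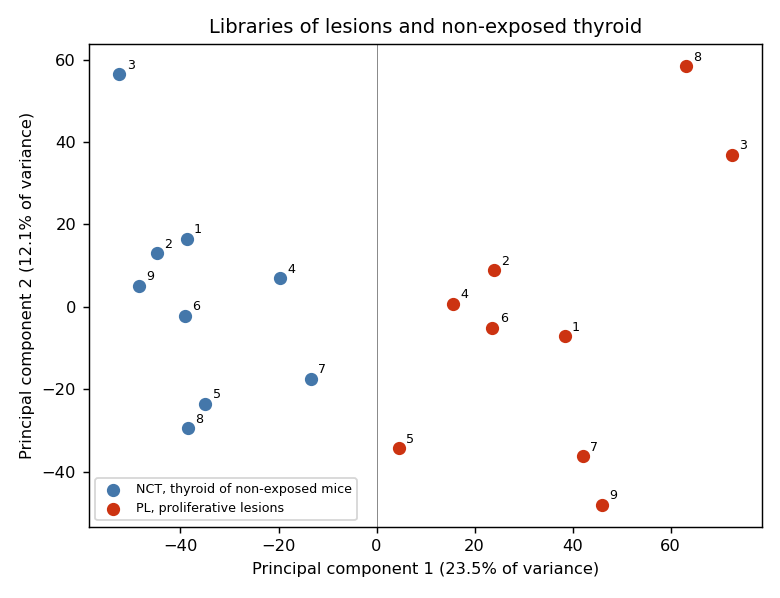
Positions of the 9 NCT (blue) and 9 PL (red) libraries on the first 2 principal components of log2 CPM, with the share of variance on each axis and the replicate number beside each point. NCT libraries lie left of 0 on the first component and PL libraries right of it, with PL replicate 5 (4.56) and NCT replicate 7 (-13.4) nearest to each other.

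Between lesions and non-exposed thyroid 1433 of 14234 genes (10.1%) passed the threshold of adjusted p under 0.05, 776 higher in PL (5.45%) and 657 lower (4.62%). Counts of called members in the gene lists below are to be read beside these shares of 10.1%, 5.45% and 4.62%. A change of at least 2-fold was seen for 625 of the called genes (4.39%). All 9 PL libraries lay above all 9 NCT libraries for 78 tested genes (0.548%) and below them for 65 (0.457%). The median log2 fold change was 0.00 over all tested genes, 0.82 over those called higher and -0.96 over those called lower. The count of calls depended on the libraries. Without the 4 libraries over 2000 CPM of Pth or Lipf it was 797 (443 higher, 354 lower), without the 4 NCT libraries over 200 CPM of Ucp1 359 (193 higher, 166 lower), and with the adipocyte score as a covariate 105 (62 higher, 43 lower), of which 102 were among the 1433. The score moved with the group, so a fit that holds both estimates the group difference less precisely and can lose calls for that reason alone. A call that ended in this fit was not thereby shown to come from fat, and the fit is not a correction for fat. No gene passed a test of whether the difference itself differed between females and males (edgeR, sex by group interaction, 0 of 14234), and 730 had an unadjusted p under 0.05. That share is close to the one expected by chance. With 3 males in each group the test could miss differences between the sexes.

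The gene with the smallest p was Atp11a, a flippase that moves phospholipids to the inner leaflet of the plasma membrane (chr8:12757014-12868728, plus strand of GRCm38). Its level was 135 to 244 CPM in NCT (median 149.7) and 392 to 654 CPM in PL (median 514). Every lesion lay above every control, and NT averaged 276 ± 78.7 CPM, between the groups (log2 fold change 1.57, SE 0.13, adjusted p = 2.57e-07). Ptgs1, the cyclooxygenase that starts prostaglandin synthesis, was at 17.2 to 58.5 CPM in NCT (median 25.1) and 80.2 to 377 CPM in PL (median 185), again without overlap (log2 fold change 2.7, SE 0.27, adjusted p = 5.23e-06). Nptx1, a secreted pentraxin best known from neurons, was at 22.5 to 67 CPM in NCT (median 33.5) and 132 to 397 CPM in PL (median 183) (log2 fold change 2.28, SE 0.23, adjusted p = 5.23e-06). Napsa, an aspartic protease known from lung and kidney, was at 139 to 322 CPM in NCT (median 163) and 417 to 833 CPM in PL (median 568) (log2 fold change 1.62, SE 0.17, adjusted p = 5.23e-06). The groups were apart for both genes. Ston2, an adaptor of endocytosis (1.79, SE 0.19), and Fndc3a, a protein with fibronectin type III repeats (1.38, SE 0.15), rose without overlap as well.

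Falls with small p were led by Syt7, a calcium sensor of vesicle and lysosome exocytosis, at 18.2 to 48.3 CPM in NCT (median 32.6) and 2.44 to 7.8 CPM in PL (median 3.79) (log2 fold change -2.82, SE 0.26, adjusted p = 5.04e-07). Gstm2, a glutathione transferase whose reads may be shared with close copies, was at 35.3 to 71.1 CPM in NCT (median 48.9) and 4.45 to 16.9 CPM in PL (median 13.9) (log2 fold change -2.06, SE 0.22, adjusted p = 5.23e-06). Tril, a partner of Toll-like receptors, was at 14.7 to 33.7 CPM in NCT (median 23) and 3.64 to 8.5 CPM in PL (median 5.94) (log2 fold change -1.86, SE 0.21, adjusted p = 6.21e-06). For all 3 genes the highest lesion lay below the lowest control. The calls of Atp11a, Ptgs1, Nptx1, Napsa, Ston2, Fndc3a, Syt7, Gstm2 and Tril remained in the fit with the adipocyte score. They also passed whichever library was left out.

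**Figure D2:**
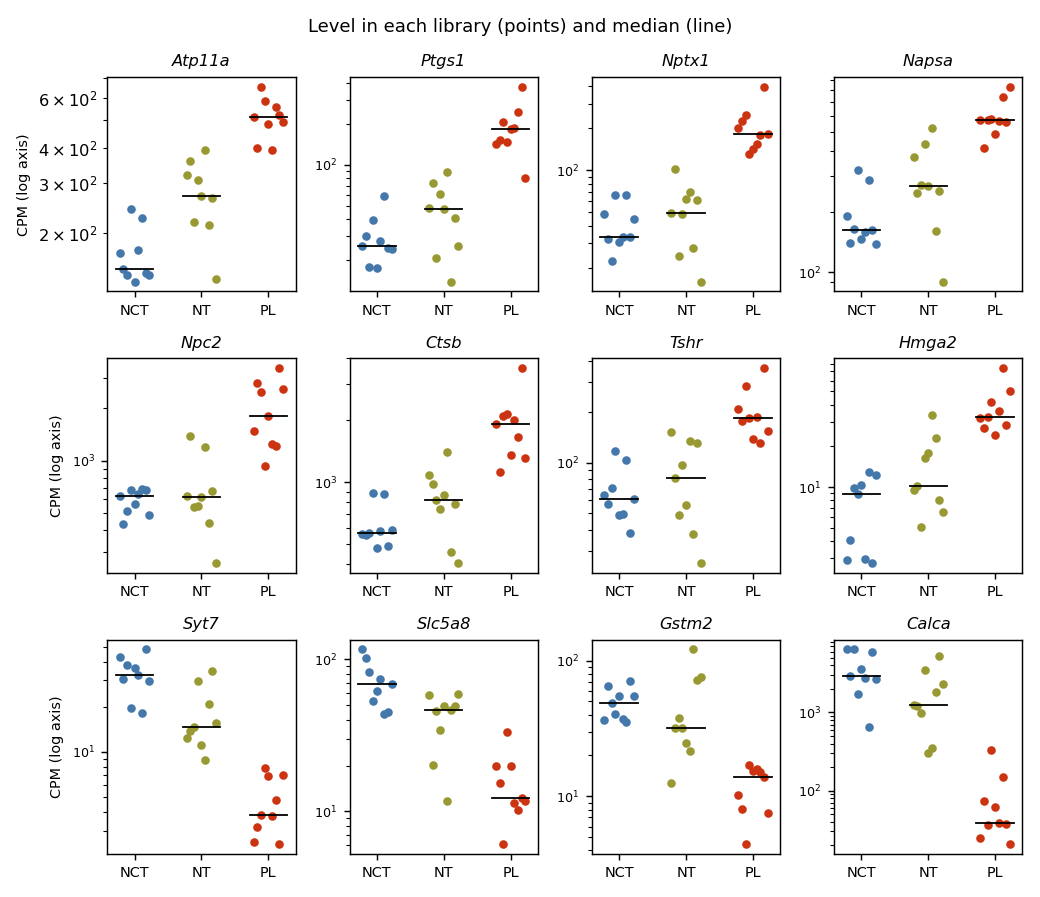
Level of 12 genes in each NCT (blue), NT (olive) and PL (red) library in CPM on a log axis, with a line at the group median. All PL points lie above all NCT points for Atp11a, Ptgs1, Nptx1, Napsa, Npc2, Ctsb, Tshr and Hmga2 and below them for Syt7, Slc5a8, Gstm2 and Calca. The NT points are shown as a description and entered no test.

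The largest rises came with wide spread among the lesions. Elobl, a relative of elongin B, was at 0.299 to 9.71 CPM in NCT (median 0.853) and 3.25 to 242 CPM in PL (median 53.2) (log2 fold change 5.41, SE 0.99, adjusted p = 0.00259), and 6 of 9 lesions lay above the highest control. Cck, the gene of the peptide hormone cholecystokinin, was at 0.44 to 17.4 CPM in NCT (median 2.73) and 2.44 to 299 CPM in PL (median 50.4) (log2 fold change 4.53, SE 0.95, adjusted p = 0.00647). Lcn2, a lipocalin that binds bacterial siderophores, was at 0.683 to 13.7 CPM in NCT (median 1.58) and 0.495 to 453 CPM in PL (median 15.4) (log2 fold change 4.55, SE 1.14, adjusted p = 0.0175). These 3 genes were high in some lesions and near control levels in others. Mansc4 (log2 fold change 4.43, SE 0.55, adjusted p = 2.37e-05), Col25a1, a membrane collagen known from neurons (log2 fold change 4.23, SE 0.63, adjusted p = 0.000401), and Muc4, a membrane mucin (log2 fold change 4.01, SE 0.69, adjusted p = 0.00135), rose with no overlap between the groups. Mansc4 reached 2.22 to 30.8 CPM in PL against at most 1.49 CPM in NCT.

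Other large rises were those of Lhx2, a homeobox transcription factor (4.46, SE 0.96), Hs3st4, a heparan sulfate sulfotransferase (4.2, SE 0.72), Gcnt3, a transferase that branches mucin sugars (4.14, SE 0.77), Slc22a19, an organic anion transporter (3.99, SE 0.76), Calcb, a calcitonin-related peptide gene (3.9, SE 0.91), and Sprr1a, a protein of the cornified envelope (3.77, SE 0.75). Each was low in NCT, where the medians ran from 0.171 to 6.32 CPM. Once the adipocyte score was a covariate, Mansc4 and Col25a1 still passed and Elobl, Cck, Lcn2, Muc4, Lhx2, Hs3st4, Gcnt3, Slc22a19, Calcb and Sprr1a did not. Lcn2 was at 2.65 there.

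Genes of hormone synthesis moved in both directions. Of 14 tested iodide handling and hormone synthesis genes 2 rose and 3 fell, with a median log2 fold change of 0.11, beside 10.1% of all tested genes called. Duoxa2, a maturation factor of the dual oxidase, rose (0.91, SE 0.25, adjusted p = 0.0196). Slc5a8, an anion transporter of the apical membrane, was at 43.8 to 116 CPM in NCT (median 68.6) and 6.1 to 33.3 CPM in PL (median 12.2), with no overlap (log2 fold change -2.22, SE 0.27, adjusted p = 2.30e-05). Slc26a7, an anion exchanger needed for iodide organification (-0.85, SE 0.17, adjusted p = 0.00289), and Tg (-0.77, SE 0.21, adjusted p = 0.0210) fell too. Tg was at 26495 to 60593 CPM in NCT (median 38534) and 9736 to 33594 CPM in PL (median 21694). Slc5a5, the sodium-iodide symporter, was at 58.9 to 168 CPM in NCT (median 103) and 35.8 to 506 CPM in PL (median 100.4) and did not pass (0.43, SE 0.41, adjusted p = 0.581). Its highest lesion was PL replicate 9, and without it the value was -0.13. In the fit with the adipocyte score Slc5a8 still passed, while Duoxa2, Slc26a7 and Tg did not. The call of Tg ended without NCT replicate 1 (-0.67, adjusted p = 0.0509).

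Tshr, the thyrotropin receptor, was at 38.1 to 118 CPM in NCT (median 60.5) and 130.4 to 365 CPM in PL (median 184), so the lowest lesion exceeded the highest control (log2 fold change 1.57, SE 0.23, adjusted p = 0.000152). NT averaged 84.8 ± 46.4 CPM. Of 20 tested thyrotropin receptor and cAMP signalling genes 4 rose and 1 fell, with a median log2 fold change of 0.05. The risen genes were Tshr and 3 genes known to respond to cyclic AMP, and the fall ended in 9 of the 18 fits that left out 1 library. Nr4a2, an orphan nuclear receptor, was at 27.6 to 51.4 CPM in NCT (median 35.5) and 51 to 119 CPM in PL (median 93.2) (log2 fold change 1.29, SE 0.17, adjusted p = 4.03e-05). Pde4b, a phosphodiesterase that breaks cyclic AMP down (1.14, SE 0.26, adjusted p = 0.00659), and Crem, a cyclic AMP responsive transcription factor (0.87, SE 0.24, adjusted p = 0.0203), rose as well. Of the 5 thyroid transcription factors Glis3 (0.87, SE 0.23, adjusted p = 0.0182) and Hhex (0.65, SE 0.20, adjusted p = 0.0392) rose, with a list median of 0.45. Pax8 (0.27, SE 0.19, adjusted p = 0.443), Nkx2-1 (0.45, SE 0.21, adjusted p = 0.196) and Foxe1 (0.12, SE 0.14, adjusted p = 0.682) did not pass. Adding the adipocyte score to the fit left the calls of Tshr and Nr4a2 in place and ended those of Pde4b, Crem, Glis3 and Hhex. The list median of the transcription factors was then -0.02. The call of Hhex ended in 10 of the 18 fits that each left out 1 library (0.48 to 0.67, adjusted p = 0.0505 to 0.0796).

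Many lysosomal genes rose. Of 28 tested lysosome genes 13 rose and 0 fell, with a median log2 fold change of 0.44 against 0.00 over all tested genes, beside 5.45% of all tested genes called higher. Npc2, which carries cholesterol out of the lysosome, was at 435 to 684 CPM in NCT (median 628) and 931 to 3404 CPM in PL (median 1803) (log2 fold change 1.74, SE 0.21, adjusted p = 1.52e-05). Ctsa, a protective protease of lysosomal enzymes, was at 95.4 to 192 CPM in NCT (median 131) and 251 to 497 CPM in PL (median 319.7) (log2 fold change 1.22, SE 0.14, adjusted p = 1.13e-05). Glb1, the lysosomal beta-galactosidase, was at 28.7 to 54.5 CPM in NCT (median 40.8) and 59.4 to 142 CPM in PL (median 101) (log2 fold change 1.25, SE 0.18, adjusted p = 9.41e-05), and Gaa, the acid alpha-glucosidase, at 42.2 to 72.5 CPM in NCT (median 53.8) and 75.1 to 150.1 CPM in PL (median 108) (log2 fold change 1.07, SE 0.14, adjusted p = 3.71e-05). All 4 genes had every lesion above every control. Further risen members, named after their values were seen, were Naglu, Gla, Ctsh, Man2b1, Lamp2, Npc1 and Tpp1, with log2 fold changes of 0.40 to 0.92. They encode enzymes of glycan, lipid and protein breakdown and membrane proteins of the lysosome. The proton pump subunits of the list were not among them, with Atp6v1a at -0.27 (SE 0.11, adjusted p = 0.130). Tfeb, a transcription factor known for lysosome genes, was at 0.10 (SE 0.25, adjusted p = 0.864).

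The summed level of the list was 3458 to 5236 CPM in NCT (median 4054), 2716 to 6333 CPM in NT (median 4397) and 4826 to 9562 CPM in PL (median 6842). The 2 lowest lesions, PL replicates 4 and 7, fell within the control range and the others lay above it. Macrophages also hold many lysosomes, and the summed level of the 20 macrophage and myeloid markers was 1087 to 17428 CPM in NCT (median 1468) and 509 to 3794 CPM in PL (median 1959), with 0 of the 18 tested ones called. The highest control sum was that of NCT replicate 9, where 1 member, Lyz2, was at 16823 CPM by itself. The next highest control sum was 2108 CPM. The part of macrophages in the lysosomal values was not tested. Fitted with the adipocyte score, 3 lysosomal genes rose, namely Ctsa, Npc2 and Gaa, and the list median was 0.33. Without the libraries over 2000 CPM of Pth or Lipf 7 rose.

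**Figure D3:**
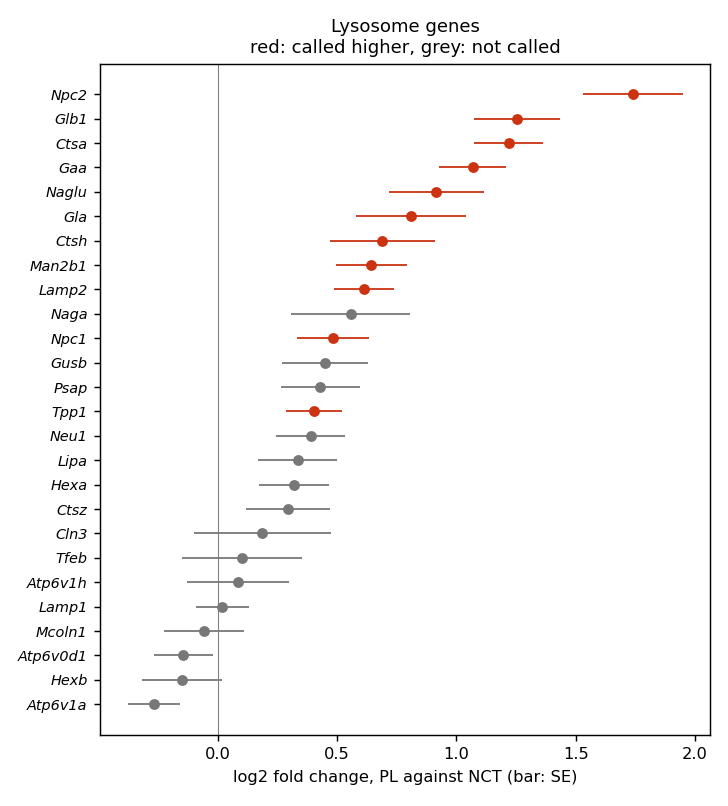
Log2 fold change of 26 of the 28 tested lysosome genes between PL and NCT on the horizontal axis, with bars of 1 SE, in red where the gene passed the threshold and grey where it did not. The points run from -0.27 to 1.74, the 11 red points all lie right of 0, and no member passed to the left.

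Promoter sequences of risen lysosomal genes are shown because many genes of lysosomal enzymes share an E-box, a known binding motif of helix-loop-helix factors such as Tfeb. The letters CACGTG, which read the same on both strands, were searched in RefSeq windows of 300 bases (250 before to 50 after the start, build GRCm38.p6). A window was matched for 21 of the 28 lysosome genes and 10133 of 14232 tested genes with a name. The motif occurred in 7.15% of all 32851 windows and in 11.5% of tested genes. Among genes called higher 14.7% held it and among genes called lower 10.8%. It occurred in 10 of the 21 lysosome genes and in 5 of the 9 risen members with a window, namely Ctsa, Gaa, Gla, Glb1 and Naglu. Lysosome genes that were not called held it as well, namely Lamp1, Mcoln1, Cln3, Atp6v0d1 and Atp6v1a. The longer form with GT before and AC after these letters was in 0 of the 9 risen members and in 0.77% of tested genes. A match is a description of the letters and not a site shown to be used. The capitals mark CACGTG in the windows of Ctsa, Gaa and Glb1.
Ctsa (chr2:164833523-164833822, plus strand): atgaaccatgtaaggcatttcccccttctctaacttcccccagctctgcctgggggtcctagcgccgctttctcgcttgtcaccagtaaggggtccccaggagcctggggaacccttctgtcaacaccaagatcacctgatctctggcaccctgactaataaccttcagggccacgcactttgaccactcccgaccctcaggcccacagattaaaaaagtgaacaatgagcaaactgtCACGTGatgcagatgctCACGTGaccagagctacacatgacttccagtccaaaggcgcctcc
Gaa (chr11:119267713-119268012, plus strand): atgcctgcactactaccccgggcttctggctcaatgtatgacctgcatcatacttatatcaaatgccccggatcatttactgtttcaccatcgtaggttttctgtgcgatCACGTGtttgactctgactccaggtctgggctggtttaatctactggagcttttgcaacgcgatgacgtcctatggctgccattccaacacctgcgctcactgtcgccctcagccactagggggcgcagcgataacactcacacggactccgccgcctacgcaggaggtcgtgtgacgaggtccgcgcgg
Glb1 (chr9:114400828-114401127, plus strand): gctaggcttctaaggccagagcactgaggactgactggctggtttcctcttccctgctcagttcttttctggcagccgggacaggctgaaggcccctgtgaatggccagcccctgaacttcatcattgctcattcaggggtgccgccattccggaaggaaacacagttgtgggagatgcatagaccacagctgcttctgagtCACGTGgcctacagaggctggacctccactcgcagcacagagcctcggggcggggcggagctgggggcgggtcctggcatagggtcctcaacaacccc

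Cathepsins that break down thyroglobulin rose with the lysosomal list. Ctsb, cathepsin B, was at 478 to 889 CPM in NCT (median 569) and 1122 to 3590.0 CPM in PL (median 1917), with no overlap (log2 fold change 1.61, SE 0.19, adjusted p = 1.13e-05). Ctsl, cathepsin L, was at 234 to 611 CPM in NCT (median 476) and 315 to 2367 CPM in PL (median 928) (log2 fold change 1.19, SE 0.30, adjusted p = 0.0148), where the lowest lesions fell among the controls. Of 13 tested hormone release, deiodinase and transporter genes 3 rose and 3 fell, with a median log2 fold change of -0.11. Slc16a10, a transporter of aromatic amino acids and thyroid hormone, was at 8.38 to 12.6 CPM in NCT (median 10.5) and 0.87 to 5.9 CPM in PL (median 3.13), with no overlap (log2 fold change -1.61, SE 0.30, adjusted p = 0.00111). Thra, a thyroid hormone receptor, fell too (-0.73, SE 0.14, adjusted p = 0.00147). With the adipocyte score as a covariate the call of Ctsb remained and those of Ctsl, Slc16a10 and Thra ended.

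Transcripts of C cells were among the largest falls. Calca, which encodes calcitonin, was at 659.9 to 6412 CPM in NCT (median 2929) and 20.7 to 329 CPM in PL (median 38.5), and no lesion reached the lowest control (log2 fold change -5.43, SE 0.67, adjusted p = 8.78e-05; chr7:114631478-114636357, minus strand). Pcsk2, a prohormone convertase, was at 16.9 to 179.6 CPM in NCT (median 95.2) and 0.37 to 4.75 CPM in PL (median 1.91) (log2 fold change -5.88, SE 0.54, adjusted p = 5.23e-06). Scg2, a granule protein, was at 63 to 722 CPM in NCT (median 291) and 1.52 to 39.9 CPM in PL (median 5.32) (log2 fold change -5.04, SE 0.66, adjusted p = 0.000172). The ranges were apart for these genes, as for Chgb (-4.77, SE 0.63), Scg3 (-4.43, SE 0.46) and Resp18, an endocrine granule protein outside the list (-5.32, SE 0.62). Pcsk1, a second convertase, fell by a similar size (-3.93, SE 0.52, adjusted p = 5.60e-05), with its lowest control, NCT replicate 7, inside the lesion range. Of 12 tested C cell genes 2 rose and 7 fell, with a median log2 fold change of -4.18.

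The risen members were Scg5, a chaperone of the convertase that many secretory cells make (1.89, SE 0.28), and Calcb, whose reads may be shared with Calca. Chga was at 18367 CPM in PL replicate 2, the lesion with 27677 CPM of Pth, and parathyroid cells are known to make it as well. The summed level of the list was 1708 to 8852 CPM in NCT (median 3759) and 577 to 19353 CPM in PL (median 1028), where PL replicate 2 was the highest and the other lesions were at most 1797 CPM. Of the list 0 rose and 7 fell in the fit with the adipocyte score.

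Promoters of fallen C cell genes are shown because genes of hormone granules are known for cyclic AMP response elements. The letters TGACGTCA, which read the same on both strands, were in 3.54% of tested genes with a window and 1.79% of all windows. They were in 3 of 6 fallen C cell genes with a window, namely Scg2, Chgb and Pcsk1. Among genes called higher 2.87% held them and among genes called lower 2.44%. Neither risen cyclic AMP gene with a window held them (0 of 2). The capitals mark TGACGTCA.
Scg2 (chr1:79439977-79440276, minus strand): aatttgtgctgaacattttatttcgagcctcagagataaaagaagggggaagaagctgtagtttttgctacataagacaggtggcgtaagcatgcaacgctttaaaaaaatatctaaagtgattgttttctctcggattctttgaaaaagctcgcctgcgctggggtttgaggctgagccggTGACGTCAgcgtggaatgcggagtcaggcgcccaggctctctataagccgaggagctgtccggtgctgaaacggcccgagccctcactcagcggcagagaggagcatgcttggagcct
Chgb (chr2:132781392-132781691, plus strand): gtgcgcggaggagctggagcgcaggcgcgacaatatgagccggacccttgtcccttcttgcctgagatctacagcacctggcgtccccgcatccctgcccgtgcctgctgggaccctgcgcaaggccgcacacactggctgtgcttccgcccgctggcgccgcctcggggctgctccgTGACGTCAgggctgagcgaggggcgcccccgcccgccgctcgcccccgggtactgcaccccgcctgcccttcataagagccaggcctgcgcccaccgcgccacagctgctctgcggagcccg
Pcsk1 (chr13:75089607-75089906, plus strand): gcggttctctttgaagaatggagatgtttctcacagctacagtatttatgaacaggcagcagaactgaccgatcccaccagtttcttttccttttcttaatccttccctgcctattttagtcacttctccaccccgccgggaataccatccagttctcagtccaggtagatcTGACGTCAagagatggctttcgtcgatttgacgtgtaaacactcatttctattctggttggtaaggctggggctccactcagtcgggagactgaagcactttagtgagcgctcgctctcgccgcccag

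Transcripts of airway and squamous epithelium were lower in lesions as well. Of 13 tested airway and squamous epithelium genes 1 rose and 10 fell, with a median log2 fold change of -3.3. Bpifa1, a secreted protein of the upper airway, was at 285 to 4557 CPM in NCT (median 1093) and 16.7 to 415 CPM in PL (median 30.3) (log2 fold change -4.18, SE 0.78, adjusted p = 0.00293). Scgb3a2, an airway secretoglobin, was at 12 to 101 CPM in NCT (median 69) and 0.348 to 19.8 CPM in PL (median 1.01) (log2 fold change -4.1, SE 0.76, adjusted p = 0.00276), and Sec14l3 fell by a similar size (-4.21, SE 0.77, adjusted p = 0.00242). Krt5, a keratin of basal cells, was at 4.19 to 22.3 CPM in NCT (median 14.9) and 0.37 to 7.04 CPM in PL (median 1.21) (log2 fold change -2.58, SE 0.52, adjusted p = 0.00281). For these 4 genes 1 or 2 lesions lay above the lowest control and the others below it. Cyp2a5, a cytochrome P450 of airway and liver with near-identical copies, fell without overlap (-4.43, SE 0.76, adjusted p = 0.00146). Sprr1a was the risen member of the list. The summed level was 386 to 8941 CPM in NCT (median 1373), 160.4 to 6599 CPM in NT (median 1107) and 55.2 to 512 CPM in PL (median 313). Whether tracheal tissue was captured with the controls was not tested. Of these genes Cyp2a5 still passed in the fit with the adipocyte score, and Bpifa1, Scgb3a2, Sec14l3, Krt5 and Sprr1a did not. Cyp2a5 stands outside the list, of which no member was called there, and the list median was -3.34. Without the libraries over 2000 CPM of Pth or Lipf 6 members fell.

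Some of the largest falls by fold change rested on NCT replicate 9. A2ml1, a protease inhibitor of stratified epithelium, was at 15134 CPM there and at most 78.9 CPM in the other controls, so the log2 fold change of -6.33 became -1.16 without it (adjusted p = 0.0179). Scgb3a1 went from -6.09 to -1.46 (adjusted p = 0.0509) and Ltf, the iron-binding lactotransferrin, from -5.18 to -1.52 (adjusted p = 0.123). Tff2, a trefoil peptide of mucus, went from -6.57 to -0.11 (adjusted p = 0.892), and Lipf from -6.43 to 0.15 (adjusted p = 0.740). Of the 11 gastric-type markers 6 were at 0 in all lesions and 2 were tested. Msln, a surface protein of mesothelium, fell by 4.72 on the log2 scale (SE 1.14), and its highest control was at 188 CPM against a median of 3.73.

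**Figure D4:**
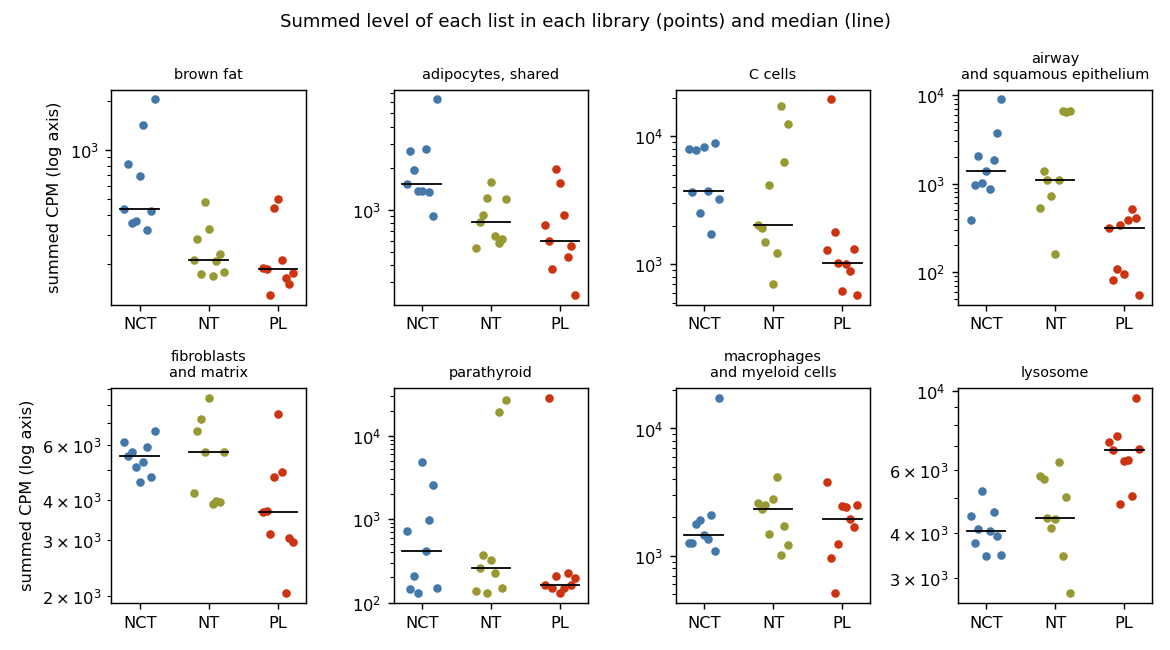
Summed level of 8 gene lists in each NCT (blue), NT (olive) and PL (red) library in CPM on a log axis, with a line at the group median. Brown fat, adipocyte, C cell and airway sums have lower medians in PL than in NCT, the lysosome sum has a higher one, and the parathyroid (28758 CPM) and C cell (19353 CPM) sums are highest in PL replicate 2, with NT replicates 7 (19173 and 17175 CPM) and 9 (26734 and 12461 CPM) next below.

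Markers of human papillary thyroid carcinoma, taken from the human disease, moved mostly upward among the called members. Of 20 tested papillary carcinoma marker genes 8 rose and 2 fell, with a median log2 fold change of 0.33. Hmga2, a chromatin protein of embryonic tissues, was at 2.79 to 12.9 CPM in NCT (median 8.9) and 24.2 to 74.1 CPM in PL (median 32.3), with no overlap (log2 fold change 2.37, SE 0.32, adjusted p = 5.86e-05). Sdc4, a heparan sulfate proteoglycan, was at 120.1 to 175 CPM in NCT (median 147) and 176 to 929 CPM in PL (median 323), also apart (log2 fold change 1.51, SE 0.25, adjusted p = 0.000823). Slc34a2, a sodium-phosphate cotransporter, was at 2.56 to 28 CPM in NCT (median 8.08) and 20.1 to 375 CPM in PL (median 88.7) (log2 fold change 3.73, SE 0.64, adjusted p = 0.00163), and 8 of 9 lesions exceeded the highest control. Itga3, an integrin chain, rose too (1.33, SE 0.22, adjusted p = 0.000388). Cited1, a transcriptional coactivator that is raised in the human disease, was at 1.49 to 11.1 CPM in NCT (median 7.8) and 0 to 0.793 CPM in PL (median 0.2) and fell without overlap (log2 fold change -4.85, SE 0.57, adjusted p = 1.13e-05). Lgals3, a galectin that pathologists stain in carcinoma, was at 85.9 to 181 CPM in NCT (median 114) and 27.1 to 265 CPM in PL (median 118) and did not pass (0.10, SE 0.31, adjusted p = 0.893). Once the adipocyte score was a covariate, Hmga2 and Cited1 still passed and Sdc4, Slc34a2 and Itga3 did not.

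Among signalling genes, ligands of the epidermal growth factor receptor split. Areg, amphiregulin, was at 3.08 to 43.7 CPM in NCT (median 7.22) and 23.2 to 211 CPM in PL (median 83.2) (log2 fold change 2.63, SE 0.55, adjusted p = 0.00568), and Ereg, epiregulin, rose from a low level (3.33, SE 0.72, adjusted p = 0.00586). Hbegf, another ligand, was at 15.4 to 44.6 CPM in NCT (median 33.7) and 9.9 to 26.3 CPM in PL (median 16.8) and fell (log2 fold change -0.84, SE 0.22, adjusted p = 0.0154). Of 16 tested MAPK output genes 4 rose and 1 fell, with a median log2 fold change of 0.25. Of 20 tested receptor tyrosine kinase and insulin-like growth factor genes 1 rose and 5 fell, with a median log2 fold change of -0.09. With 1 library left out 0 to 2 rose and 3 to 6 fell, and 1 fell without the libraries over 2000 CPM of Pth or Lipf. Ntrk2, a neurotrophin receptor, was at 19.4 to 94.4 CPM in NCT (median 28.4) and 0.296 to 17.3 CPM in PL (median 4.04), with no overlap (log2 fold change -2.27, SE 0.59, adjusted p = 0.0203). Fgfr3 (-1.89, SE 0.44, adjusted p = 0.00791) and Pdgfra, a receptor of stromal cells (-1.22, SE 0.25, adjusted p = 0.00262), fell as well. Of 16 tested Eph receptor and ephrin genes 5 rose and 1 fell, with a median log2 fold change of 0.23. Epha7 was at 10.2 to 31.1 CPM in NCT (median 18.1) and 23.2 to 86.9 CPM in PL (median 48.9) (log2 fold change 1.38, SE 0.25, adjusted p = 0.00122), Ephb3 rose with wide spread (1.93, SE 0.43, adjusted p = 0.00762) and Ephb2 fell (-1.27, SE 0.28, adjusted p = 0.00497). Without the libraries over 2000 CPM of Pth or Lipf 2 of this list rose. Runx1, known for its part in blood cell formation, was at 8.2 to 23.6 CPM in NCT (median 15.6) and 14.6 to 52.7 CPM in PL (median 29.2) (log2 fold change 0.80, SE 0.23, adjusted p = 0.0241). In NT Runx1 was at 19.7 to 46.6 CPM (median 34.7), so its level there was not below that of the lesions. The call of Runx1 ended without PL replicate 9 (0.66, adjusted p = 0.0545). In the fit with the adipocyte score Areg, Ereg, Hbegf, Ntrk2, Fgfr3, Pdgfra, Epha7, Ephb3, Ephb2 and Runx1 did not pass.

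Some enzymes of heparan sulfate rose, while mucin and neural genes moved both ways. Of 17 tested heparan sulfate synthesis genes 5 rose and 0 fell, with a median log2 fold change of 0.32. Hs3st3a1, which adds a rare sulfate to heparan chains, was at 0.452 to 10.2 CPM in NCT (median 2.6) and 11 to 39.6 CPM in PL (median 20.6), with no overlap (log2 fold change 2.85, SE 0.41, adjusted p = 0.000142). Sulf2, which removes sulfate outside the cell (0.90, SE 0.14, adjusted p = 0.000160), and Ext2, a polymerase of the chain (0.73, SE 0.13, adjusted p = 0.000886), were apart as well. Of 12 tested mucin and apical surface genes 3 rose and 1 fell, with a median log2 fold change of 0.07. Muc20 was at 0.683 to 10.4 CPM in NCT (median 2.04) and 1.2 to 34.5 CPM in PL (median 21.3) (log2 fold change 2.69, SE 0.54, adjusted p = 0.00360) and was high in all lesions but PL replicate 7. Podxl, an apical sialomucin, fell (-0.53, SE 0.14, adjusted p = 0.0132). Of 16 tested neural and developmental genes 4 rose and 4 fell, with a median log2 fold change of -0.13. Without the libraries over 2000 CPM of Pth or Lipf 2 rose and 1 fell. Cntn1, a contactin of axons, was at 0 to 2.8 CPM in NCT (median 0.587) and 3.28 to 20.5 CPM in PL (median 7.9), with no overlap (log2 fold change 3.1, SE 0.59, adjusted p = 0.00169), and Sema3e, a guidance cue, was at 6.77 to 28.2 CPM in NCT (median 14.4) and 0.495 to 6.85 CPM in PL (median 1.49) and fell (log2 fold change -2.55, SE 0.41, adjusted p = 0.000364). Adding the adipocyte score to the fit left the calls of Hs3st3a1, Muc20 and Sema3e in place and ended those of Sulf2, Ext2, Podxl and Cntn1.

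Tight junction and adhesion genes moved both ways. Of 20 tested epithelial adhesion genes 2 rose and 3 fell, with a median log2 fold change of 0.10. Cldn8, a claudin of tight epithelia, was at 10.4 to 28.7 CPM in NCT (median 16.8) and 2.26 to 13.3 CPM in PL (median 3.33) (log2 fold change -1.73, SE 0.31, adjusted p = 0.00108), and Cldn4 fell as well (-0.90, SE 0.23, adjusted p = 0.0157). Epcam, a general epithelial surface protein, was at 187 to 309 CPM in NCT (median 257) and 294 to 410.3 CPM in PL (median 333) (log2 fold change 0.42, SE 0.10, adjusted p = 0.0104), a small rise. Dsg2, a desmosomal cadherin, rose too (0.50, SE 0.13, adjusted p = 0.0120). Of the 14 tested calcium pump and channel genes Atp2b2, a plasma membrane pump (3.31, SE 0.74, adjusted p = 0.00881), rose and Atp2a3, a pump of the endoplasmic reticulum (-1.66, SE 0.43, adjusted p = 0.0136), fell. The adhesion list was 25% called and the calcium list 14.3%, beside 10.1% of all tested genes. With the adipocyte score as a covariate the calls of Cldn8, Cldn4, Epcam, Dsg2, Atp2b2 and Atp2a3 ended.

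Some genes of cell division rose in lesions. Of 24 tested cell cycle genes 6 rose and 0 fell, with a median log2 fold change of 0.71, and all 24 members had a positive value. The share called was 25%, beside 10.1% of all tested genes. Mki67, a nuclear protein of cycling cells, was at 2.73 to 18.4 CPM in NCT (median 11.1) and 10.1 to 33.4 CPM in PL (median 25.4) (log2 fold change 1.07, SE 0.30, adjusted p = 0.0253). Cenpe, a kinetochore motor, was at 3.84 to 17.4 CPM in NCT (median 9.23) and 12.4 to 34 CPM in PL (median 26.6) (log2 fold change 1.23, SE 0.25, adjusted p = 0.00293), and Mcm2, a replication helicase subunit, at 4.97 to 15.8 CPM in NCT (median 11.1) and 9.7 to 31.8 CPM in PL (median 23) (log2 fold change 1.0, SE 0.21, adjusted p = 0.00373). The groups overlapped for all 3. Ccnd1, cyclin D1, was at 90.2 to 198 CPM in NCT (median 136) and 131 to 525 CPM in PL (median 222) (log2 fold change 0.92, SE 0.22, adjusted p = 0.0112) and its partner kinase gene Cdk6 fell (-0.44, SE 0.11, adjusted p = 0.0146). Of 25 tested p53 target genes 0 rose and 3 fell, with a median log2 fold change of 0.01. That is 12% called, beside 10.1% of all tested genes. The fallen genes were Phlda3, Perp and Plk2, whose calls ended in 13 or 14 of the 18 fits that left out 1 library. Their values over those fits were -0.76 to -0.40. Cdkn1a, a cell cycle inhibitor induced by p53, was at 106 to 198 CPM in NCT (median 151) and 95.8 to 190.2 CPM in PL (median 125) and did not pass (-0.22, SE 0.14, adjusted p = 0.374). The call of Mki67 ended without NCT replicate 2 (1.01, adjusted p = 0.0524) and PL replicate 1 (0.98, adjusted p = 0.0531). No cell cycle gene was called in the fit with the adipocyte score and the list median was 0.52. The calls of Ccnd1 and Cdk6 ended in the fit with the adipocyte score. In NT Ccnd1 was at 142 to 270 CPM (median 209), near its level in the lesions.

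Some chaperone genes of the endoplasmic reticulum rose slightly. Of 22 tested chaperone and secretion genes 7 rose and 0 fell, with a median log2 fold change of 0.07. Without the libraries over 2000 CPM of Pth or Lipf 2 of them rose, at a median of -0.04. Calr, calreticulin, was at 1053 to 1667 CPM in NCT (median 1266) and 1624 to 2499 CPM in PL (median 1891) (log2 fold change 0.63, SE 0.12, adjusted p = 0.00178). P4hb (0.62, SE 0.12, adjusted p = 0.00156), Pdia4 (0.66, SE 0.14, adjusted p = 0.00345) and Pdia3 (0.48, SE 0.12, adjusted p = 0.00874), all disulfide isomerases, rose as well. Of 16 tested ATF4 and amino acid stress genes 3 rose and 2 fell, with a median log2 fold change of 0.03. Slc7a11, which imports cystine, was at 0.342 to 9.21 CPM in NCT (median 2.71) and 3.63 to 101 CPM in PL (median 13.6) (log2 fold change 2.73, SE 0.69, adjusted p = 0.0167). Atf3 (1.01, SE 0.27, adjusted p = 0.0191) and Ddit4, an inhibitor of growth signalling (0.70, SE 0.16, adjusted p = 0.00669), rose. The 2 falls of this list numbered 0 to 2 when 1 library was left out. Once the adipocyte score was a covariate, Calr, P4hb, Pdia4, Pdia3, Slc7a11, Atf3 and Ddit4 no longer passed.

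Antioxidant genes split by enzyme. Of 26 tested antioxidant genes 3 rose and 3 fell, with a median log2 fold change of -0.03. Without NCT replicate 4 5 rose, and without NCT replicate 1 1 fell. Sod3, the extracellular superoxide dismutase, was at 39.3 to 126 CPM in NCT (median 59.7) and 108 to 527 CPM in PL (median 343) (log2 fold change 2.18, SE 0.33, adjusted p = 0.000412), and 7 of 9 lesions lay above the highest control. Prdx4, a secretory peroxiredoxin (1.19, SE 0.24, adjusted p = 0.00291), and Prdx1, its cytosolic relative (0.71, SE 0.14, adjusted p = 0.00183), rose, and Prdx6 was at 169 to 239 CPM in NCT (median 204) and 62 to 186 CPM in PL (median 130.2) and fell (log2 fold change -0.74, SE 0.16, adjusted p = 0.00447). Of 16 tested glutathione transferase genes 0 rose and 3 fell, with a median log2 fold change of -0.10. Gstm1 was at 138 to 306 CPM in NCT (median 206) and 50.5 to 141 CPM in PL (median 92.9) (log2 fold change -1.23, SE 0.17, adjusted p = 8.31e-05) and Gsto1 at 7.01 to 154 CPM in NCT (median 67.2) and 8.25 to 33.1 CPM in PL (median 11.8) (log2 fold change -2.44, SE 0.46, adjusted p = 0.00289). In the fit with the adipocyte score Sod3 and Gstm1 still passed, while Prdx4, Prdx1, Prdx6 and Gsto1 did not.

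Some genes of lipid synthesis and oxidation fell. Of 19 tested fatty acid and glycerolipid synthesis genes 0 rose and 7 fell, with a median log2 fold change of -0.44, beside 4.62% of all tested genes called lower. Fasn, the fatty acid synthase, was at 168 to 567 CPM in NCT (median 253) and 121 to 244 CPM in PL (median 133) (log2 fold change -1.09, SE 0.20, adjusted p = 0.00146). Acly, which supplies acetyl-CoA (-0.73, SE 0.15, adjusted p = 0.00357), Lpin1, a phosphatidate phosphatase (-1.37, SE 0.27, adjusted p = 0.00269), and Agpat2, an acyltransferase (-1.4, SE 0.29, adjusted p = 0.00385), fell as well. Of 22 tested fatty acid oxidation genes 0 rose and 6 fell, with a median log2 fold change of -0.48. Acaa2, a mitochondrial thiolase, was at 139 to 379 CPM in NCT (median 193) and 67.3 to 191 CPM in PL (median 121) (log2 fold change -0.90, SE 0.20, adjusted p = 0.00513), and Decr1 (-0.86, SE 0.19, adjusted p = 0.00611), Hadh (-0.90, SE 0.24, adjusted p = 0.0201) and Ppara, a nuclear receptor of lipid use (-1.82, SE 0.50, adjusted p = 0.0239), fell too. The groups overlapped for the genes with printed levels. The summed level of the synthesis list had a median of 3112 CPM in NCT, 1748 CPM in NT and 2182 CPM in PL. For the oxidation list the medians were 1646 CPM in NCT, 1308 CPM in NT and 1332 CPM in PL. Normal thyroid of the mice with lesions thus also lay below the controls by these medians. Of the oxidation genes 3 fell without NCT replicate 6 and 2 without the libraries over 2000 CPM of Pth or Lipf. The call of Ppara ended without NCT replicate 6 (-1.47, adjusted p = 0.0521).

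Some brown fat genes fell as well. Of 11 tested brown fat genes 0 rose and 6 fell, with a median log2 fold change of -1.9. The number fallen was 3 to 8 with 1 library left out (3 without any one of NCT replicates 2, 6 and 9 or PL replicates 1, 2, 3 and 8), 1 without the libraries over 2000 CPM of Pth or Lipf, and 0 without the NCT libraries over 200 CPM of Ucp1 or with the adipocyte score. The score is the mean of the tested brown fat and shared fat markers, and Ucp1 is a brown fat marker itself. Both of these settings thus lower the differences of this list by their making, and the 0 calls are not a separate result. Kcnk3, a potassium channel, was at 9.46 to 79.9 CPM in NCT (median 26.7) and 0.33 to 13.3 CPM in PL (median 4.19) (log2 fold change -2.71, SE 0.60, adjusted p = 0.00761), and Otop1 (-3.05, SE 0.74, adjusted p = 0.0107) and Pank1, which starts coenzyme A synthesis (-1.55, SE 0.39, adjusted p = 0.0149), fell as well. Ucp1 was at 70.0 to 684 CPM in NCT (median 102) and 1.4 to 125 CPM in PL (median 11.9) and did not pass (-2.71, SE 0.87, adjusted p = 0.0575). The summed brown fat level was 321 to 2043 CPM in NCT (median 433) and 129 to 499 CPM in PL (median 186), and that of the 15 markers shared by white and brown fat 901 to 6306 CPM in NCT (median 1531) and 244 to 1969 CPM in PL (median 593). Of the 14 tested ones among the latter 1 fell, at a median of -1.34. It was Pnpla2, a triglyceride lipase, whose call ended in 13 of the 18 fits that left out 1 library, and the number fallen was 0 to 6 over these fits. Brown and white fat cells express the lipid genes too. In the fit with the adipocyte score no lipid synthesis or oxidation gene was called, and the medians were -0.11 and -0.01. Without the 4 NCT libraries over 200 CPM of Ucp1 1 synthesis gene and 0 oxidation genes fell.

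Of 13 tested mitochondrially encoded genes 0 rose and 6 fell, with a median log2 fold change of -0.55. mt-Nd2 was at 5958 to 15983 CPM in NCT (median 9744) and 4169 to 7366 CPM in PL (median 5689.7) (log2 fold change -0.81, SE 0.17, adjusted p = 0.00270) and mt-Cytb at 7122 to 20955 CPM in NCT (median 13594) and 4927 to 11007 CPM in PL (median 8064) (log2 fold change -0.72, SE 0.18, adjusted p = 0.0136), both subunits of the respiratory chain, with overlap between the groups. All mitochondrially encoded transcripts together took 14% ± 3.63 of counts in NCT and 10.4% ± 1.59 in PL (SD, n = 9). Of 36 tested nuclear respiratory chain genes 0 rose and 2 fell, with a median log2 fold change of -0.31, 5.56% called beside 10.1% of all tested genes. The fallen genes, Cox7a1 and Ndufs1, each lost the call in 9 of the 18 fits that left out 1 library, and the number fallen was 0 to 4 over these fits. With the adipocyte score as a covariate the medians of the mitochondrially encoded and nuclear lists were 0.07 and 0.01, with 0 calls in both. Without the NCT libraries over 200 CPM of Ucp1 these medians were -0.28 and -0.11, again with 0 calls. Of 25 tested glycolysis and hypoxia genes 3 rose and 4 fell, with a median log2 fold change of -0.13. With 1 library left out 1 to 3 rose and 2 to 4 fell. Ndrg1, a hypoxia-induced gene, was at 62.2 to 127 CPM in NCT (median 95.1) and 106 to 319 CPM in PL (median 219) (log2 fold change 1.24, SE 0.18, adjusted p = 0.000143), and Eno2, an enolase known from neurons and endocrine cells, fell (-1.3, SE 0.28, adjusted p = 0.00397). Of 20 tested cholesterol synthesis and uptake genes 2 rose and 1 fell, with a median log2 fold change of 0.19. That is 15% called, beside 10.1% of all tested genes. The fall, of Insig1, a regulator of this pathway, ended in 7 of the 18 fits. Hsd17b7, an enzyme of late cholesterol synthesis, was at 3.87 to 14.9 CPM in NCT (median 6.32) and 15 to 107 CPM in PL (median 18.8), with no overlap (log2 fold change 1.81, SE 0.41, adjusted p = 0.00717). Adding the adipocyte score to the fit ended the calls of Ndrg1, Eno2 and Hsd17b7.

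Some stromal genes fell. Of 22 tested fibroblast and matrix genes 0 rose and 5 fell, with a median log2 fold change of -0.39. The number fallen was 3 to 8 with 1 library left out, at the lowest value in 13 of the 18 fits, and 2 without the libraries over 2000 CPM of Pth or Lipf. Gsn, an actin-severing protein, was at 429 to 976 CPM in NCT (median 555) and 85 to 577 CPM in PL (median 230.0) (log2 fold change -1.33, SE 0.30, adjusted p = 0.00796), and Col6a2, a collagen VI chain, at 41 to 65.9 CPM in NCT (median 54.1) and 13 to 56.9 CPM in PL (median 24.7) (log2 fold change -0.81, SE 0.21, adjusted p = 0.0167). The summed level was 4565 to 6634 CPM in NCT (median 5518) and 2037 to 7485 CPM in PL (median 3667). Of the 14 tested pericyte and smooth muscle genes Myl9, a myosin light chain, was the fallen member (-1.3, SE 0.28, adjusted p = 0.00509). Among 20 tested endothelial genes 2 rose and 2 fell. The fallen genes were Prox1, a factor of lymphatic vessels, and Tek, an angiopoietin receptor, whose calls ended in 10 and 14 of the 18 fits that left out 1 library. Neither was called without NCT replicate 9. The fibroblast list was 22.7% called, the pericyte list 7.14% and the endothelial list 20%, beside 10.1% of all tested genes. Sox17, a transcription factor of arteries and of endoderm, was at 6.32 to 13.4 CPM in NCT (median 8.08) and 17.2 to 152 CPM in PL (median 56.9), with no overlap (log2 fold change 2.93, SE 0.38, adjusted p = 8.31e-05), while the median of the endothelial list was -0.27. Sox9, a factor of cartilage that many epithelia also express, was at 253 to 399.7 CPM in NCT (median 355) and 383 to 828 CPM in PL (median 481) (log2 fold change 0.60, SE 0.14, adjusted p = 0.00693). With the adipocyte score as a covariate the call of Sox17 remained and those of Gsn, Col6a2, Myl9 and Sox9 ended.

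Immune lists held few calls. No macrophage (18 tested, median 0.18), T and NK cell (9, -0.01) or B and plasma cell gene (7, -0.06) passed. The members with the smallest p were Cd163, a macrophage scavenger receptor (-1.4, SE 0.48, adjusted p = 0.0702), Cd3g, a T cell receptor chain (-1.07, SE 0.56, adjusted p = 0.254), and Igha, an antibody heavy chain (-1.57, SE 0.90, adjusted p = 0.313). Tapbp, tapasin, which helps to load peptides on MHC class I, was at 96.3 to 169.8 CPM in NCT (median 141) and 188 to 366 CPM in PL (median 221), with no overlap (log2 fold change 0.83, SE 0.14, adjusted p = 0.000458), the call among 11 tested genes of that list. The MHC class I list was 9.09% called, beside 10.1% of all tested genes. Among 20 interferon response genes Ifi44 rose (5% of the list), and its call ended in 14 of the 18 fits that left out 1 library. Among 16 immediate early genes Atf3 rose (6.25%), and both shares lay near the 5.45% of all tested genes called higher. Of 16 tested clock genes 1 rose and 2 fell, with a median log2 fold change of -0.33. That is 18.8% called, beside 10.1% of all tested genes. The risen gene, Per2, was at 4.3 to 25.3 CPM in NCT (median 11.8) and 12.6 to 78.4 CPM in PL (median 26.3) (log2 fold change 1.4, SE 0.36, adjusted p = 0.0171). The fallen genes were Clock and Nr1d2, and each lost the call in 13 of the 18 fits that left out 1 library. The parathyroid (6 tested), skeletal muscle (13) and red blood cell (5) lists had 0 calls in the edgeR fit. Without PL replicate 2 2 parathyroid genes fell. Pvalb (-2.04, SE 1.13, adjusted p = 0.296) and Hbb-bt (-0.45, SE 0.43, adjusted p = 0.580) had the smallest p of the muscle and blood lists. Pth itself was at 56.5 to 4488 CPM in NCT (median 331) and 34.9 to 27677 CPM in PL (median 56.3) (1.63, SE 1.55, adjusted p = 0.586), and without PL replicate 2 at -4.22 (adjusted p = 0.0102). The calls of Tapbp and Per2 ended in the fit with the adipocyte score.

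**Figure D5:**
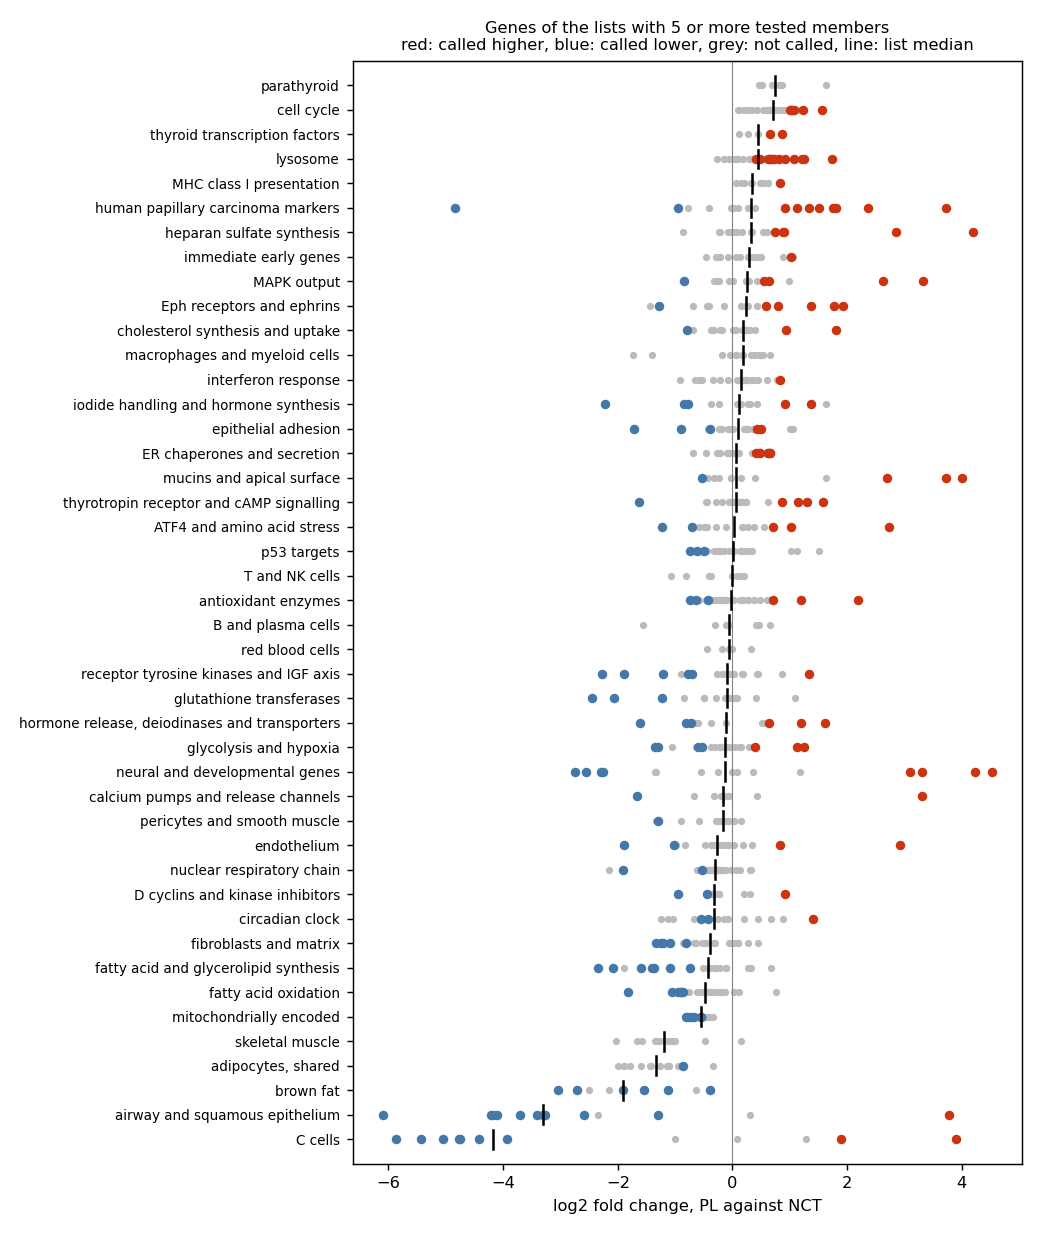
Log2 fold change between PL and NCT of every tested gene of the lists with 5 or more tested members, 1 list a line, with red points for genes called higher, blue for called lower, grey for not called and a black bar at the list median. The C cell (median -4.18), airway (-3.3) and brown fat (-1.9) lists lie lowest, and most other medians lie within 1 unit of 0.

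Among the most abundant genes Tpt1, a growth-related protein of all cells, was at 2237 to 3308 CPM in NCT (median 2733) and 3193 to 5550.1 CPM in PL (median 3535) and rose (log2 fold change 0.51, SE 0.13, adjusted p = 0.0135). Within the groups the median SD of log2 CPM over tested genes was 0.426 in NCT and 0.466 in PL. For genes called lower it was 0.432 and 0.577, and for genes called higher 0.384 and 0.444. Once the adipocyte score was a covariate, Tpt1 no longer passed.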

How the data were processed

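The authors deposited raw counts of reads per gene, whole numbers whose totals differ between libraries. Per the labels' protocols, RNA of laser-captured tissue was isolated with a Qiagen micro kit and turned into 3′ end libraries with a QuantSeq kit. Per the submitters' processing notes, STAR, featureCounts, DESeq2 and GRCm38 were used, without versions or roles. No source used here names the annotation release, the strand setting or any handling of molecular identifiers, so overlapping genes, and near-identical copies such as Gstm, Cyp2a, Slc22a, Calca with Calcb and mitochondrial genes, are uncertain.

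Of 54532 rows 54495 were matched by identifier to GENCODE M21, and the other 37 held 0.00428% of counts. Genes were tested by quasi-likelihood in edgeR 4.0.16 (R 4.3.3) on the 18 libraries with trimmed mean of M values (TMM) factors, robust dispersion, filterByExpr (minimum count 10) and p-values adjusted by Benjamini-Hochberg over all tested genes, threshold 0.05, with no covariate. SE, an approximation, is the absolute log2 fold change over the square root of the F statistic. CPM uses TMM factors of all 27 libraries, and log2 CPM a prior count of 2. The procedure was also run on counts simulated from the means and dispersions of these libraries. That simulation held no mixed tissue and no outlying library, so it cannot show how these affect the calls. Named genes were those called with a mean of at least 10 CPM in a group and at least 8 of 9 lesions on a side of the NCT median (the 12 largest rises and falls, 10 smallest p and 5 highest levels), up to 4 members of each of 46 gene lists by smallest p, and a fixed set that included Tg, Slc5a5, Pax8, Tshr and Mki67. Predicted genes were counted and not named, and some genes the rule names are not reported here. The comparison, lists and rule were chosen with earlier results of these data known. Chga, Lyz2, Atp6v1a, Tfeb, Scg5 and further lysosome members were named after their values were seen. No library pair within a group matched within sampling noise (lowest chi-square per degree of freedom 13.2 over 72 pairs). Alternatives used DESeq2 1.42.0, limma 3.58.1 with voom, other scalings and filters, sex or an adipocyte score as a covariate, and subsets of libraries. The voom fit, named limma-voom below, used quality weights for the libraries.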

Additional observations from a re-analysis of the deposited data

Results flagged for a closer look

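Within each group of 9 libraries the highest and lowest log2 CPM of each named gene were compared with their nearest neighbours by Dixon's criterion. Of 332 sets 25 held a value that stood apart, and chance gives about 1 in 20 groups. NCT replicate 9 gave 9 of them. It held A2ml1 at 15134 CPM (next 78.9), Scgb3a1 at 2616 CPM (next 41.8), Ltf at 6714 CPM (next 162), Ntrk2 at 94.4 CPM (next 41.6), Nupr1 at 387 CPM (next 109.9), Agpat2 at 140.4 CPM (next 69.7), Insig1 at 73.2 CPM (next 29.7), Tff2 at 2792 CPM (next 5.38) and Lipf at 9970.1 CPM (next 14.4).

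Among the other controls a value stood apart for Elobl, Cited1, Phlda1, Calr, Gsto1, Pcsk1 and Gaa. Elobl was at 9.71 CPM in NCT replicate 7, above the next value of 2.1. Cited1 was at 1.49 CPM in NCT replicate 7, below the next value of 5.7. Phlda1 was at 106 CPM in NCT replicate 5, below the next value of 159. Calr was at 1667 CPM in NCT replicate 4, above the next value of 1328. Gsto1 was at 7.01 CPM in NCT replicate 1, below the next value of 34.1. Pcsk1 was at 1.99 CPM in NCT replicate 7, below the next value of 10.3. Gaa was at 72.5 CPM in NCT replicate 4, above the next value of 55.2.

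Among the lesions a value stood apart for Resp18, mt-Nd4, Mcm2, Phlda3, Fasn, Hsd17b7, Ctsa, Muc20 and Pth. Resp18 was at 2.85 CPM in PL replicate 4, above the next value of 0.546. mt-Nd4 was at 5615 CPM in PL replicate 9, below the next value of 9763. Mcm2 was at 9.7 CPM in PL replicate 1, below the next value of 18. Phlda3 was at 45.3 CPM in PL replicate 5, above the next value of 26.4. Fasn was at 244 CPM in PL replicate 5, above the next value of 161. Hsd17b7 was at 107 CPM in PL replicate 3, above the next value of 24.9. Ctsa was at 497 CPM in PL replicate 8, above the next value of 351. Muc20 was at 1.2 CPM in PL replicate 7, below the next value of 15.1. Pth was at 27677 CPM in PL replicate 2, above the next value of 89.8.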

How the results depend on the processing

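The count of calls was 1433 (776 higher, 657 lower). It was 1437 (773 higher, 664 lower) with DESeq2 size factors, 1387 (718 higher, 669 lower) with upper-quartile factors, 2122 (1045 higher, 1077 lower) with the Wald test of DESeq2, 1438 (693 higher, 745 lower) with limma-voom, 1634 (832 higher, 802 lower) with no filter and 1817 (996 higher, 821 lower) with all 27 libraries in the fit. The fit of all 27 libraries held no term for mouse, although each NT library shares its mouse with a PL library. In the 6 females of each group it was 450 (251 higher, 199 lower), in the 5 NCT and 8 PL mice of the later mouse numbers 423 (236 higher, 187 lower), without the libraries over 2000 CPM of Pth or Lipf 797 (443 higher, 354 lower), with the adipocyte score as a covariate 105 (62 higher, 43 lower) and without the 4 NCT libraries over 200 CPM of Ucp1 359 (193 higher, 166 lower). The subsets held fewer samples, and for the other settings the cause was not tested. The later mouse numbers left out NCT replicates 1, 2, 3 and 4 and PL replicate 1, so mouse number was unbalanced between the groups. The title and the label of NCT replicate 4 give different mouse numbers, both among the earlier ones. At least 2-fold changes numbered 625. Leaving out each library in turn gave 1126 to 1655 calls (613 to 871 higher, 513 to 784 lower). The sex interaction had 0 calls in edgeR under both filters, with 730 and 729 genes at an unadjusted p under 0.05, a share close to that expected by chance. No paired analysis was possible because PL and NCT came from different mice that share no label number. Of 153 named genes with a call, 34 kept the call in every setting and 124 in all 18 fits that left out 1 library. The direction turned for Lipf (0.14) and Pth (-2.91) with the Wald test of DESeq2, Foxe1 (-0.0035) and Pth (-1.83) with limma-voom, Lipf (0.067), Foxe1 (-0.071), Pth (-4.24) and Slc5a5 (-0.29) in females alone, Lgals3 (-0.21) in the later mouse numbers, Pth (-2.71) with sex as a covariate, Lipf (0.041) and Pth (-2.63) without the libraries over 2000 CPM of Pth or Lipf, A2ml1 (1.64), Scgb3a1 (0.44), Ltf (0.37), Pnpla2 (0.074), Tff2 (2.77), Lipf (3.32), Pvalb (0.11), Hbb-bt (0.56), Pax8 (-0.19), Foxe1 (-0.17), Pth (-1.03), Slc5a5 (-0.76) and Nkx2-1 (-0.017) with the adipocyte score as a covariate and Tff2 (0.0022), Lipf (0.031), Hbb-bt (0.0023) and Lgals3 (-0.049) without the NCT libraries over 200 CPM of Ucp1. With 1 library left out it turned for Lipf (-6.6 to 0.15), Foxe1 (-0.00059 to 0.19), Pth (-4.22 to 2.46), Slc5a5 (-0.13 to 0.57) and Lgals3 (-0.071 to 0.24), given as ranges. The medians of the parathyroid, gastric-type and p53 lists changed sign between scalings or tests (-0.43, 0.02 and -0.01 at the far end). Low counts limit genes under a few CPM.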

Other observations

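Predicted genes at the start of chromosome 14 of GRCm38 were among the called genes that the naming rule left out. In all, 33 such genes between positions 3049285 and 19585135 were tested, of which 30 rose and 0 fell, with a median log2 fold change of 3.74. Their summed level was 119.7 to 234 CPM in NCT (median 151) and 174 to 2343 CPM in PL (median 452). PL replicate 3 was the highest lesion. Such predicted genes are known as close copies of each other that can share reads, so the 30 calls may not be independent.

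For each library the median difference of a chromosome's genes from the NCT mean, less the same median over all genes, lay between -0.157 and 0.107 on the log2 scale in single lesions, and between -0.0837 and 0.0652 in single controls.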
